A study of Homo sapiens with 4 samples.

Results

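The receptors through which cells hold the extracellular matrix were examined in A2780s cells, an established human ovarian adenocarcinoma line, after stable knockdown of GALNT3, an enzyme that starts mucin-type O-glycosylation. The set held 33 genes of 17240 named genes on the array and comprised 26 integrin subunits, 3 syndecans, the hyaluronan receptor CD44, the discoidin domain receptors DDR1 and DDR2, and dystroglycan (DAG1). The genes were listed by name and role and matched to array probes by the probe's RNA accession. No cut on a measured value was used, but the list was drawn up with earlier results of these data known. RNA of 2 knockdown clones, sh-G1 and sh-G2, was hybridised against RNA of 1 mock-transfected clone, ctrl, on 4 Agilent whole-genome arrays of 2 colours, with 2 arrays per clone and the dyes exchanged between them. All clones were selected in puromycin and carried the pSilencer 4.1 puro vector, and both knockdown clones carried the same GALNT3 shRNA. The labels write the ctrl cell line both as A2780s and as A27803, and each group is a single clone. The ctrl RNA was common to all arrays, so its own spread entered no test, and a difference of ctrl from both clones cannot be told apart from a difference of the knockdown.

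Integrins are heterodimers of an alpha and a beta subunit that span the membrane, bind matrix outside and connect to the actin cytoskeleton inside through talin, kindlin and their partners. The alpha subunit largely sets the ligand. ITGA1, ITGA2, ITGA10 and ITGA11 pair with ITGB1 to bind collagen, ITGA3, ITGA6 and ITGA7 bind laminin, and ITGA5, ITGA8, ITGAV and ITGA2B bind ligands with the RGD tripeptide such as fibronectin and vitronectin. Syndecans are transmembrane proteoglycans whose heparan sulphate chains bind matrix and growth factors beside integrins, DDR1 and DDR2 are collagen-activated receptor tyrosine kinases, and dystroglycan links laminin to dystrophin or utrophin.

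Values are given as the log2 ratio of knockdown over ctrl, where 1 is a doubling and 0.585 a change of 1.5-fold, always in the order sh-G1 in Cy5, sh-G1 in Cy3, sh-G2 in Cy5 and sh-G2 in Cy3. The share of spots well above background was 88.1% to 97.6% per array and channel, and no gene spot was saturated. GALNT3 itself has 1 probe, A_24_P114249, which was well above background in ctrl on 4 arrays and in the knockdown channel on 2. Its log2 ratios were -0.09, 0.08, 0.12 and -0.14, with the ctrl signal only 0.29 log2 units above the dimmest signal accepted as above background, so a fall of GALNT3 could not have been seen and the probe does not check the labels. All 33 receptor genes had a probe on the array, 53 probes in all, of which 50 probes for 32 genes were well above background in at least 1 channel on every array. The exception among the genes was ITGB6, the partner of ITGAV in epithelia, whose only probe was not well above background on any array in either channel, so no ratio is given for it.

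The test called 1 receptor gene higher and 0 lower. ITGA1, the alpha subunit of the collagen and laminin receptor alpha1-beta1, passed the test, and no further receptor probe did. It was thus 1 of 32 receptor genes called higher, where 0.184% of all 16882 named genes were called higher. The count called lower was 0 of 32, where 0.906% of all named genes were called lower in the limma test, and at an unadjusted p under 0.05 the test gave 4 receptor genes higher and 2 lower, where 6.24% of all named genes were higher and 9.09% lower at that p. Each count is of genes taken by their brightest probe, with p-values adjusted over all 39152 probes kept. The median log2 ratio of the 32 receptor genes was -0.0088, and that of all named genes was -0.0039.

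**Figure D1:**
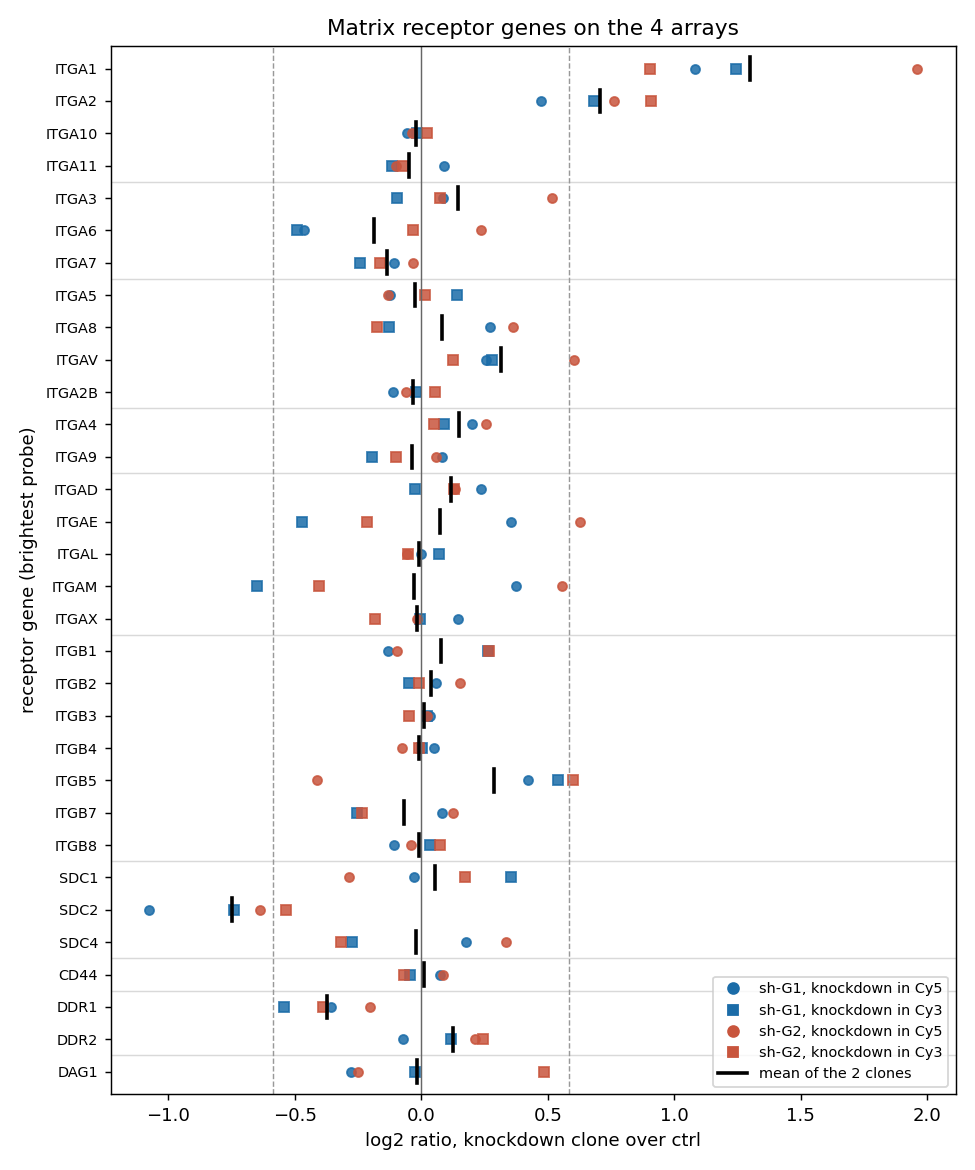
Log2 ratio of knockdown over ctrl (horizontal axis) for the brightest probe of each of the 32 receptor genes measured (vertical axis), with 1 point per array, coloured by clone and shaped by dye, and a black bar at the mean of the 2 clones. Grey horizontal lines separate the roles and dashed lines mark 1.5-fold. The ITGA1 points lie between 0.90 and 1.96, to the right of the 1.5-fold line, ITGA2 and SDC2 are the next farthest from 0, and most genes lie within the dashed lines on all 4 arrays.

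The ITGA1 log2 ratios were 1.08, 1.24, 1.96 and 0.90, from its 1 probe in 1 spot per array, so no second probe could be set beside them. All 4 arrays were above 1.5-fold, and the values of the clones overlapped. The sh-G1 mean was 1.16 and the sh-G2 mean 1.43, which gave a mean of the clones of 1.30 (SE 0.09, n = 2 clones, adjusted p = 0.0428), a 2.46-fold higher signal. Its 95% interval was 1.03 to 1.57, from an SE moderated by the spread of other probes. The call sits close to the threshold. Without the array with sh-G2 in Cy3 the mean was 1.56 with an adjusted p of 0.052, and where ctrl was assumed to vary as the clones did, the adjusted p was 0.28 and no gene on the array was called.

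ITGA2, the alpha subunit of the other widely used collagen receptor, alpha2-beta1, gave log2 ratios of 0.47, 0.68, 0.76 and 0.91 with its brightest probe. All 4 arrays were above 0, with sh-G2 above sh-G1 throughout. The mean was 0.71 (SE 0.08, n = 2 clones, adjusted p = 0.0898), so ITGA2 missed the threshold. It passed in 5 of 15 alternatives. These were the fits without sh-G1 in Cy5, without sh-G1 in Cy3 and without sh-G2 in Cy5, the deposited table of ratios, and clone as a random block (adjusted p = 0.002). All of them called more probes over the whole array than the main fit did. A fit without 1 array, like the deposited table, leaves a clone with 1 dye orientation, so the dye does not cancel there. The other ITGA2 probes gave less. Probe A_24_P243329 had a mean of 0.22 (95% interval 0.10 to 0.35) and probe A_23_P70161 had a mean of 0.07 (95% interval -0.07 to 0.22), while A_32_P178800 was not well above background on any array. The spread between the ITGA2 probes kept was the only one among the 13 receptor genes with several probes kept that exceeded 0.3 log2 units. Of the remaining collagen-binding subunits, ITGA10 had a mean of -0.02 (SE 0.04, n = 2 clones) and ITGA11 of -0.05 (SE 0.05, n = 2 clones), with both 95% intervals within 0.20 of 0.

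**Figure D2:**
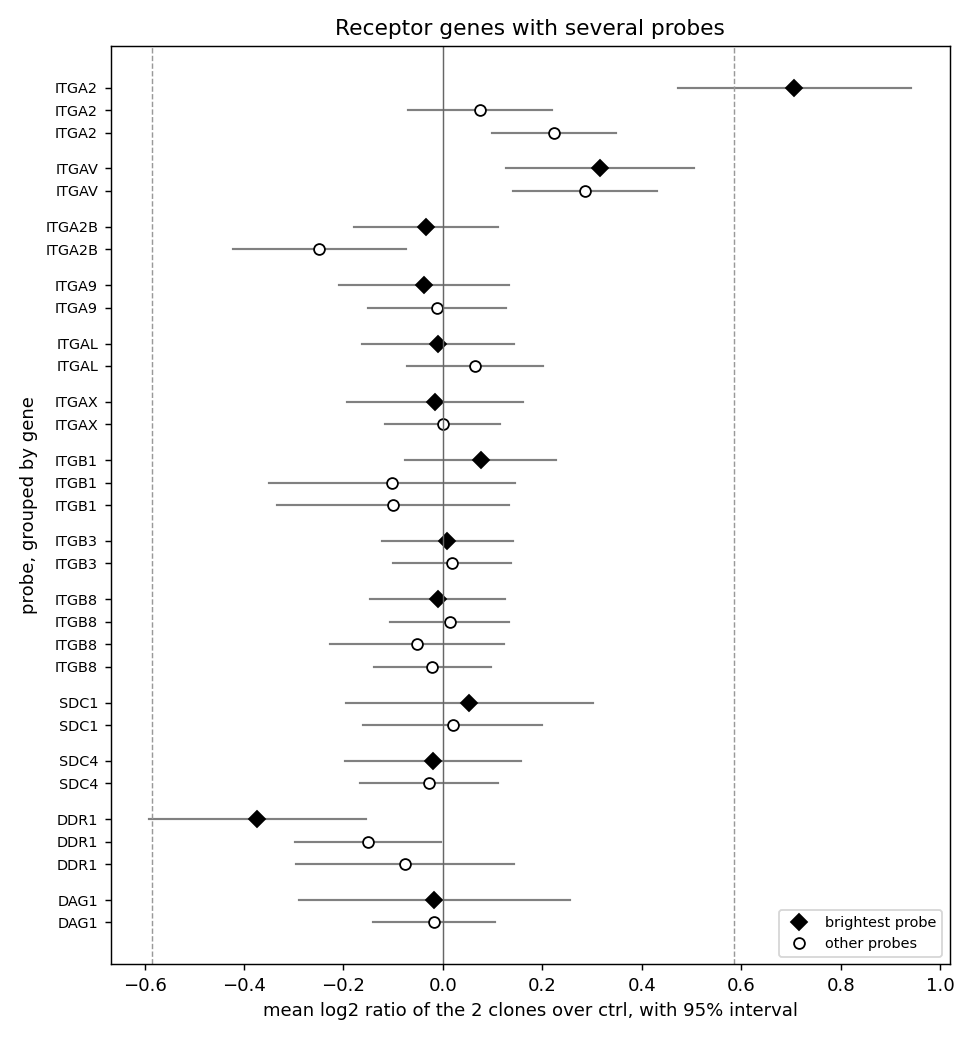
Mean log2 ratio of the 2 clones over ctrl with its 95% interval (horizontal axis) for every probe kept of the 13 receptor genes with several probes (vertical axis), with the brightest probe of each gene filled and dashed lines at 1.5-fold. The ITGA2 probes spread from 0.07 to 0.71 and the DDR1 probes from -0.37 to -0.08, whereas the ITGAV probes lie at 0.32 and 0.29.

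ITGA1 and ITGA2 are neighbours on chromosome 5. In the GRCh38.p14 annotation of RefSeq they are separated among the measured genes only by PELO, which starts at the same base as ITGA1, and the 250 bases before each start are shown here because these were the receptor genes with the highest ratios. Capitals mark the GC box GGGCGG, searched on both strands. The stretches are chr5:52787666-52787915 for ITGA1 and chr5:52989102-52989351 for ITGA2, both on the plus strand.
ITGA1: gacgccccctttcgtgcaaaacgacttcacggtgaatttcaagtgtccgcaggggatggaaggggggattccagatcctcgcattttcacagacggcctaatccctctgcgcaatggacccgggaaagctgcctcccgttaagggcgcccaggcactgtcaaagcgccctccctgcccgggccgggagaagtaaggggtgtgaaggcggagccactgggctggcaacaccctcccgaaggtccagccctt
ITGA2: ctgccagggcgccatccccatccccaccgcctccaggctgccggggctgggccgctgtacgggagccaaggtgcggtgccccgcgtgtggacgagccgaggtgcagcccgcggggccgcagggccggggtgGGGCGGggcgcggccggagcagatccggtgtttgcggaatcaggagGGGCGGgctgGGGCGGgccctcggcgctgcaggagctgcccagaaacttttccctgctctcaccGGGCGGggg
The ITGA2 stretch held 4 GC boxes, 26 CpG dinucleotides and 76.4% G and C. The ITGA1 stretch held no GC box, 16 CpG dinucleotides and 62% G and C. Among 35116 RefSeq promoters of the same length, 42.6% held at least 1 GC box and the median was 58% G and C, and neither stretch held TATAAA, which 10.7% of promoters held. A match describes letters and is no evidence of a factor at work.

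The measured genes beside ITGA1 were also higher. From PARP8 to MOCS2, 6 measured genes in a row had means between 0.41 and 1.30 by their brightest probes, with 23 of 24 array values above 0. ITGA2 belongs to this run only by its brightest probe. Its other probes kept had means of 0.07 and 0.22, in the range of the genes outside the run. PARP8 gave 0.50 (SE 0.10, n = 2 clones), ISL1 0.46 (SE 0.11), PELO 0.43 (SE 0.06) and MOCS2 0.41 (SE 0.08), and none of these passed the test, with adjusted p-values of 0.215, 0.277, 0.129 and 0.215. The one value not above 0 was ISL1 on the array with sh-G1 in Cy5, at -0.001. The other 15 genes within 10 measured genes of ITGA1 on either side had means between -0.12 and 0.27, with a median of 0.03. The run was picked out after its values were seen, so it is described without a test, and DNA copy number was not measured here. Beside SDC2 and DDR1, the receptor genes with the lowest ratios, a narrower window was read. The 3 measured genes on either side of SDC2 had means between -0.29 (CPQ) and 0.17, and those beside DDR1 between -0.19 and 0.13. FLOT1, IER3 and GTF2H4, the nearest to DDR1, had means of -0.19, -0.17 and -0.11. TUBB, VARS2 and SFTA2, farther out, had means of 0.02, 0.13 and 0.002.

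**Figure D3:**
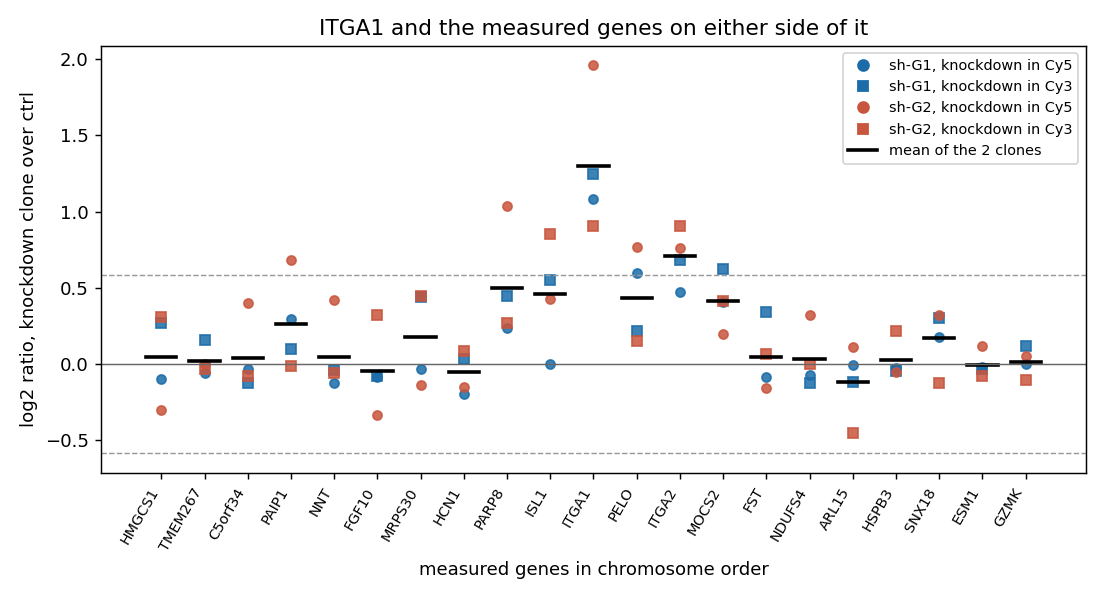
Log2 ratio of knockdown over ctrl (vertical axis) for ITGA1 and the 10 measured genes on either side in chromosome order (horizontal axis), each by its brightest probe, with 1 point per array, a black bar at the mean of the 2 clones and dashed lines at 1.5-fold. The 6 genes from PARP8 to MOCS2 have means of 0.41 or more, and the means of the other 15 lie between -0.12 and 0.27.

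The laminin-binding subunits did not pass the test. ITGA6, which pairs with ITGB1 or ITGB4, gave log2 ratios of -0.46, -0.49, 0.24 and -0.03. Both sh-G1 arrays were below both sh-G2 arrays, and the clone means were -0.48 and 0.10. The difference between the clones was 0.58 with an adjusted p of 0.297, so it was not called, and it was the smallest adjusted p of a clone difference among the receptor probes. In all, 0 of 32 receptor genes differed between the clones, where 0.184% of all named genes did, by limma on the 4 arrays with a dye term, and at an unadjusted p under 0.05 the count was 3 of 32, against 6.66% of all named genes. ITGA7 was below 0 on every array, between -0.24 and -0.03, with a mean of -0.14 (SE 0.06, n = 2 clones, adjusted p = 0.497). ITGA3 had a mean of 0.15 (SE 0.09, n = 2 clones, adjusted p = 0.612) with its highest value, 0.52, in sh-G2 labelled with Cy5. ITGB4, the hemidesmosomal beta subunit, lay between -0.08 and 0.05 on all arrays.

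The RGD-binding subunits did not pass the test, and ITGAV had the largest mean among them. ITGAV forms the vitronectin receptors with ITGB1, ITGB3, ITGB5, ITGB6 or ITGB8, and its brightest probe, printed in 10 spots per array, gave 0.26, 0.28, 0.60 and 0.12. The SD among the 10 spots was 0.13 to 0.19 per array, so the sh-G2 arrays differed by more than the SD of the spots. The mean was 0.32 (SE 0.06, n = 2 clones, adjusted p = 0.219) and a second probe gave 0.29 (SE 0.05, n = 2 clones, adjusted p = 0.173). ITGA5, the fibronectin receptor subunit, lay between -0.13 and 0.14 with a mean of -0.02 (95% interval -0.19 to 0.14). ITGA8 had a mean of 0.08 and ITGA2B, the platelet subunit, of -0.03, with a second ITGA2B probe at -0.25 (95% interval -0.42 to -0.07, adjusted p = 0.262). ITGA4 was above 0 on every array, between 0.05 and 0.26, with a mean of 0.15 (adjusted p = 0.296), and ITGA9 had a mean of -0.04.

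No beta subunit passed the test. ITGB1 is the common partner of the collagen-binding and most laminin-binding alphas, and its brightest probe gave -0.13, 0.26, -0.10 and 0.27, negative with the knockdown in Cy5 and positive with it in Cy3 in both clones. The mean was 0.08 (95% interval -0.08 to 0.23), and the other ITGB1 probes both gave -0.10, one of them with 95% interval -0.33 to 0.13 from 10 spots per array. ITGB5 was 0.42, 0.54, -0.41 and 0.60. The array with sh-G2 in Cy5 thus stood apart from the other 3, the mean was 0.29 (SE 0.12, n = 2 clones, adjusted p = 0.454), and without that array the mean was 0.54. Leaving it out gives sh-G2 only 1 dye orientation, so the dye no longer cancels, and the ITGB5 dye effect was -0.28. ITGB3, ITGB7 and ITGB8 had means of 0.01, -0.07 and -0.01.

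No leukocyte integrin passed the test, and the single values of ITGAM, ITGAE and ITGB2 followed the dye in both clones. ITGAM, the alpha subunit of complement receptor 3, gave 0.37, -0.65, 0.56 and -0.40. Both arrays with the knockdown in Cy5 were positive and both with it in Cy3 negative, and the mean was -0.03 (SE 0.08, n = 2 clones). ITGAE, the E-cadherin-binding subunit of lymphocytes in epithelia, did likewise, with 0.35, -0.47, 0.63 and -0.21. Over all receptor probes kept, the sign followed the dye in both clones for 19 of 50, or 38%, against 40.5% of all probes kept, and the dye effect was larger than the mean ratio for 30 of the 50. ITGAL, ITGAX and ITGB2, which is the beta partner of the leukocyte alphas other than ITGAE, had means of -0.01, -0.02 and 0.04. ITGAD, whose brightest probe was well above background on only 3 of 4 arrays in each channel, had a mean of 0.12. The 12 leukocyte and platelet marker genes measured, PTPRC, CD14 and SPI1 among them, had 0 called by limma, 0 at an unadjusted p under 0.05 and a median of 0.0022.

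Among the syndecans, SDC2 stood apart. Its 1 probe gave -1.08, -0.74, -0.64 and -0.53. Every array was below 0, with both sh-G1 arrays lower than both sh-G2 arrays. The mean was -0.75 (SE 0.11, n = 2 clones, adjusted p = 0.128), equal to a 1.68-fold lower signal, with a 95% interval of -1.06 to -0.44, so SDC2 missed the threshold of the test and, because of the sh-G2 array in Cy3, the rule of 1.5-fold on all 4 arrays. SDC2 passed in 4 of 15 alternatives, the fits without sh-G1 in Cy3 and without sh-G2 in Cy5 among them. In those 2 fits a clone keeps 1 dye orientation, so the dye does not cancel. Over all alternatives its mean ran from -0.95 to -0.59. SDC1 had a mean of 0.05 (95% interval -0.19 to 0.30) and SDC4, the syndecan of focal adhesions, of -0.02 (95% interval -0.20 to 0.16). CD44 gave 0.07, -0.04, 0.09 and -0.07 with a mean of 0.01 (95% interval -0.11 to 0.13).

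DDR1 gave -0.36, -0.54, -0.20 and -0.39 with its brightest probe. All 4 arrays were below 0, and the mean was -0.37 (SE 0.07, n = 2 clones, adjusted p = 0.214). The other DDR1 probes had means of -0.15 and -0.08, with signs that differed between arrays. DDR2 had a mean of 0.13 (adjusted p = 0.63). DAG1 ranged from -0.28 to 0.48 with a mean of -0.02, and a second DAG1 probe had the same mean of -0.02.

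By the rule of at least 1.5-fold in 1 direction on all 4 arrays, which has no test, 1 receptor gene was higher, ITGA1, against 0.391% of all named genes, and 0 were lower, against 1.45% of all named genes. On both arrays of sh-G1, ITGA1 was the 1 gene higher (0.74% of all named genes) and SDC2 the 1 gene lower (1.86% of all named genes). On both arrays of sh-G2, ITGA1 and ITGA2 were the 2 genes higher (0.829% of all named genes) and 0 were lower (2.26% of all named genes). The clones share the ctrl RNA, so these counts are not independent of each other.

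For most receptors the interval bounded the ratio of the array signal under the main settings. The 95% interval of the mean lay within 1.5-fold in both directions for 26 of 32 genes. The share of all named genes with such an interval was not counted. The 6 genes with wider or shifted intervals were ITGA1, ITGA2, ITGA6, ITGB5, SDC2 and DDR1. These intervals rest on the spread between the 2 clones, moderated by that of other probes, and leave out that of ctrl. At dim probes the constant of 50 added to each signal draws ratios toward 0, so an interval there bounds the ratio of the array signal and less firmly that of the RNA. Among the 26, ITGAD, ITGB2 and ITGA3 had ctrl signals only 0.23, 0.51 and 0.83 log2 units above the dimmest accepted. Under other settings some means left their interval, as for ITGAD (up to 0.58, interval top 0.24) and ITGA4 (up to 0.45, interval top 0.27).

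**Figure D4:**
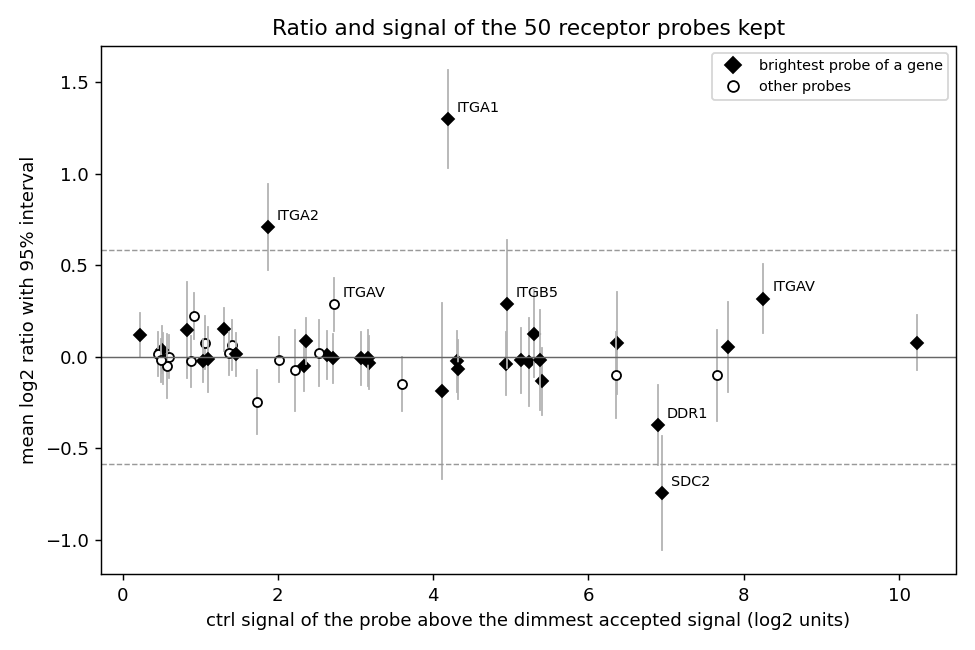
Mean log2 ratio of the 2 clones over ctrl with its 95% interval (vertical axis) against the ctrl signal of the probe above the dimmest signal accepted as above background, in log2 units averaged over 4 arrays (horizontal axis), for the 50 receptor probes kept. Filled points are the brightest probe of a gene and dashed lines mark 1.5-fold. ITGA1 at 4.19 and SDC2 at 6.95 log2 units lie well clear of the dimmest signals, while ITGA2 at 1.87 lies nearer to them.

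Single ligands of these receptors had larger ratios than any receptor gene. Of 51 ligand genes measured, 1 was called higher and 2 lower, with a median of -0.03. At an unadjusted p under 0.05, limma gave 6 ligand genes higher and 13 lower, where 6.24% of all named genes were higher and 9.09% lower. COL3A1, a fibrillar collagen chain, rose by 0.90 (SE 0.06, n = 2 clones, adjusted p = 0.0349) by its brightest probe. The other COL3A1 probes had means of 0.75 and 0.62 and did not pass (adjusted p = 0.057 and 0.28). LAMB1, the beta1 chain of laminins that ITGA3, ITGA6 and ITGA7 bind, fell by 3.14 on the log2 scale (SE 0.21, n = 2 clones, adjusted p = 0.0379). CCN1, a matricellular ligand of ITGAV integrins, fell by 1.15 (SE 0.06, n = 2 clones, adjusted p = 0.0295). Periostin (POSTN), CCN2 and nidogen 2 (NID2) had means of -2.77, -2.07 and -2.05 with adjusted p-values of 0.0885, 0.0642 and 0.201, and all 3 were more than 1.5-fold lower on each array.

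Few of the inner and lateral partners passed the test. Of 54 activators, adaptors and kinases, 0 were called by limma, with 4 higher and 6 lower at an unadjusted p under 0.05 and a median of -0.0024. Counted by any probe, 2 genes of that list were called lower, where 1.09% of all named genes had a probe called lower and 0.231% one called higher. They were testin (TES), a focal adhesion protein, with a mean of -1.90 (SE 0.08, n = 2 clones, adjusted p = 0.0202) by A_24_P55437, and caveolin-1 (CAV1), with -0.88 (SE 0.05, n = 2 clones, adjusted p = 0.0328) by A_24_P12626, against -0.60 and -0.40 by their brightest probes. By any probe, the counts of the receptors and of the other lists were as by the brightest. The largest means by the brightest probe were those of ITGB1BP2, a muscle protein that binds the ITGB1 tail, at 1.04 (adjusted p = 0.054), filamin C (FLNC) at -0.83, TES at -0.60 and the parvin PARVA at -0.55, and ITGB1BP2 ranged from -0.17 to 2.00 across the arrays. Of 14 tetraspanins and lateral partners, 1 was called lower, the leukocyte tetraspanin CD53, with a mean of -1.39 (SE 0.05, n = 2 clones, adjusted p = 0.02). CD9 had a mean of -0.53, CD47 of -0.40 and TSPAN8 of 0.52. The TSPAN8 clone means were 0.95 in sh-G1 and 0.09 in sh-G2. At an unadjusted p under 0.05, limma gave 0 genes of that list higher and 3 lower. Of 16 syndecan, glypican and CD44 partners, 0 were called by limma, with 2 higher and 2 lower at an unadjusted p under 0.05. The heparan sulphate proteoglycan GPC4 gave 0.96, 0.81, 1.83 and 1.23, above 1.5-fold on every array, with a mean of 1.21 (adjusted p = 0.142). The syndecan adaptor SDCBP had a mean of 0.47, GPC3 of -0.37 and GPC1 of -0.35. Of 20 genes of the dystroglycan complex, 0 were called by limma, with 1 higher and 2 lower at an unadjusted p under 0.05, and sarcospan (SSPN) had the lowest mean, -1.24 (adjusted p = 0.152). SGCA and UTRN had means of 0.35 and 0.29. The shares of all named genes given beside the receptor counts, 0.184% called higher and 0.906% called lower, and 6.24% higher and 9.09% lower at an unadjusted p under 0.05, are the background of these lists too.

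**Figure D5:**
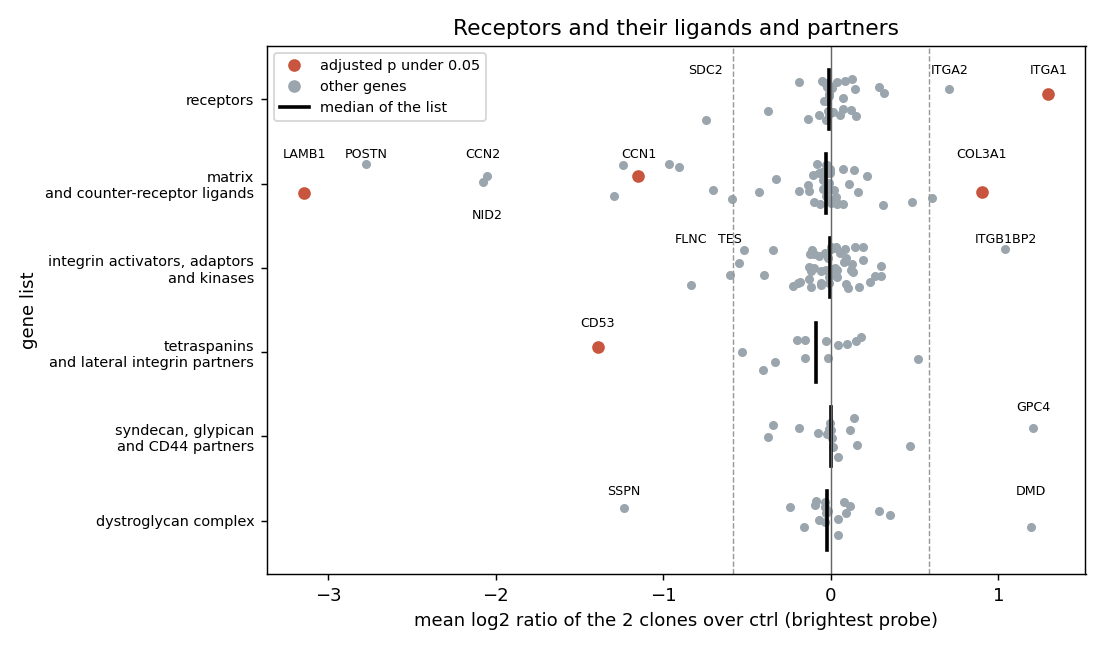
Mean log2 ratio of the 2 clones over ctrl by the brightest probe of each gene (horizontal axis) for the receptors and the 5 lists of their ligands and partners (vertical axis, points spread vertically for legibility), with genes of adjusted p under 0.05 in red, a black bar at each list's median and dashed lines at 1.5-fold. Medians lie between -0.09 and 0.0028, while single ligands such as LAMB1 lie as far as -3.14.

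Ratios of cell type marker lists were also read, with the same background of 0.184% of all named genes called higher and 0.906% called lower. A ratio between clones of 1 line does not check the labelled cell type. The ctrl signals, in log2 units above the dimmest accepted, ran from 1.06 (KRT7) to 7.14 (KRT18) for the epithelial and ovarian carcinoma markers. For the fibroblast and mesenchymal markers they ran from 2.18 (PDGFRB) to 11.48 (VIM). Of 10 epithelial and ovarian carcinoma markers, 2 were called lower, KRT18 with a mean of -2.32 and KRT8 of -1.03, and the others lay between -0.33 and 0.04. A second KRT8 probe had a mean of -0.44 (limma adjusted p = 0.151). Of 10 fibroblast and mesenchymal markers, 1 was called lower, PDGFRA at -1.16 (adjusted p = 0.0214). At an unadjusted p under 0.05, limma gave 2 of that list higher and 6 lower, where 6.24% of all named genes were higher and 9.09% lower. LUM and DCN had means of -3.31 and -3.17 and differed between the clones. CDH2, PDGFRB, THY1 and TAGLN had means of -1.50, -0.78, -0.55 and -0.11. S100A4 was above 0 on all 4 arrays with a mean of 0.92 (adjusted p = 0.348), ACTA2 had a mean of 0.20 and VIM of 0.01, and the list's median was -0.66. Their part in the ITGA1, ITGA2 and SDC2 ratios was not tested.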

How the data were processed

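Per the labels, total RNA was amplified, labelled with Cy3 or Cy5 and hybridised to Agilent whole-genome arrays. The authors deposited Feature Extraction files with spot intensity per channel and a log10 ratio. The labels' processing notes name version 8.5.1.1 and the file headers 10.5.1.1. In R 4.3.3 with limma 3.58.1, the deposited median intensities were corrected for background (normexp, offset 50) and loess-normalized within arrays, with control spots and outlier spots at weight 0. Ratios were turned to knockdown over ctrl, spots of a probe averaged, and the 2 arrays of a clone averaged, so n = 2 clones. Whether those arrays hold the same extract is not given in the sources used here. SEs, intervals and p-values of the clone mean rest only on the spread between the clones. For each probe, eBayes moderates that spread by the spread of other probes of like signal (3.5 degrees of freedom). Probes well above background in at least 1 channel on every array were kept (39152 of 41000). The clone mean was tested against 0 with lmFit and eBayes (trend), Benjamini-Hochberg adjustment over all probes kept and a threshold of 0.05. Clone differences came from the 4 arrays with a dye term, so their p-values measure the spread between arrays, which may be technical only. Channel signals were set on 1 scale by Aquantile. Probes were named by accession through the RefSeq table of GRCh38.p14 (25398 of 41000 probes matched). The scripts were tested on simulated data.

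The named genes are all 33 receptors, GALNT3, and of each ligand or partner list the genes past the threshold and at most 4 with the largest mean by the brightest probe. The ITGA1 neighbours, CAV1 and the marker genes fall outside that rule and were chosen after their values were seen. Members and lists were chosen with earlier results of these data known. The deposited table of log10 values was an alternative only, and its column for the sh-G1 array in Cy3, which holds the scanner's error of the ratio, was left out. The alternatives were the scanner's own log10 ratio, the deposited table, other background, normalization, filter and outlier settings, each array and each clone left out, ctrl given the clones' spread, arrays with clone as a random block, probe averaging, a 2-fold rule and, chosen after seeing the data, clone differences without the dye term. RefSeq promoters were found for 23 of the 33 receptors. The number of arrays limits the precision.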

Additional observations from a re-analysis of the deposited data

Results flagged for a closer look

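DMD, which encodes the cytoskeletal partner of dystroglycan, differed between the clones by its brightest probe. The log2 ratios of that probe were -0.15, 0.00, 2.39 and 2.54, near ctrl in sh-G1 and far above it in sh-G2. The difference of sh-G2 from sh-G1 was 2.54 (limma on 4 arrays, adjusted p = 0.0193). The other DMD probes kept differed from it and from each other. Their sh-G1 and sh-G2 means were -0.05 and 1.19 by A_24_P342388, -0.02 and 0.16 by A_32_P199796, and -0.31 and -0.62 by A_24_P34186. The p-values of clone differences treat the arrays of a clone as replicates, so they measure technical spread if those arrays hold the same extract. DAG1 differed between the clones by 0.27 with an adjusted p of 0.838. The matrix proteoglycans LUM and DCN, named among the mesenchymal markers, also differed, both less far below ctrl in sh-G2. The LUM clone means were -4.58 in sh-G1 and -2.04 in sh-G2, a difference of 2.53 (adjusted p = 0.0181), and the DCN clone means were -4.24 and -2.09, a difference of 2.15 (adjusted p = 0.03). No receptor gene met that threshold. Groups of 2 arrays are too small for a check on single arrays.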

How the results depend on the processing

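The direction of 10 of the 32 receptor genes, ITGA1, ITGA2, ITGAV, SDC2 and DDR1 among them, was the same under every alternative run, and the sign of the other 22, all uncalled, changed under at least 1. ITGA1 ranged from 1.03 to 1.56 and passed the test in 11 of 15 alternatives that gave one, with adjusted p-values from 0.000681 to 0.28. The count of receptor genes called higher, 1, became 0 with median centring (adjusted p of ITGA1 0.0514), with both channels required above background (0.0508) and with ctrl given the clones' spread, and 3 with clone as a random block. The count called lower, 0, became 2 with clone as a random block. That setting enters the dye-swapped arrays of a clone separately. It called 848 probes higher and 1721 lower over the whole array, against 54 and 274 in the main fit. Whole-array calls also rose with the deposited table and in each fit without 1 array, which leave a clone with 1 array. Over the 4 fits that each leave out 1 array, the counts ran from 0 to 3 higher and from 0 to 1 lower. The counts past 1.5-fold on all arrays ran from 1 to 2 higher and from 0 to 1 lower, those for sh-G1 from 1 to 3 higher and from 1 to 3 lower, and those for sh-G2 from 2 to 4 higher and from 0 to 2 lower. The median ran from -0.0073 to 0.023. With 1 clone left out, the count on all remaining arrays was 2 higher without sh-G1 and 1 lower without sh-G2. At 2-fold, the counts were 0 higher on all arrays, 0 lower in sh-G1 and 0 higher in sh-G2. The scanner's own ratio gave 0 lower in sh-G1, and the deposited table gave 3 higher and 2 lower there, from its 1 array of that clone. The median of the receptor genes, -0.0088, was 0.018 with the scanner's ratio, 0.0016 with median centring, 0.066 with the deposited table, 0.012 without sh-G1 and 0.0061 without sh-G2. The count of clone differences stayed at 0 where it could be computed, which it could not be with an array or clone left out or with the deposited table. Array numbers follow the dye orientation in both clones, so the dye term of the clone difference is the replicate block. Without that block, an alternative chosen after seeing the data, 0 receptor genes differed, and the probes called over the whole array went from 48 to 5. The clone mean holds each orientation equally. No slide block was run because all arrays lie on 1 slide. The cause of these changes was not tested.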
